A study of Mus musculus with 12 samples.

Results

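The MHC class II genes H2-Aa, H2-Ab1, H2-Eb1, H2-DMa, H2-DMb1 and H2-Oa, the invariant chain gene Cd74 and the class II transactivator gene Ciita were followed through 12 RNA-seq libraries of mouse substantia nigra pars compacta (SNpc). These 8 genes, of 54193 genes to which the transcripts in the files were assigned, form a list chosen by name after H2-Aa had shown a strain difference in the same libraries. The strain difference of the members is therefore given as a description, and nothing is read from a test of it. The tissue was laser-microdissected from 1-week-old animals labelled male, 3 animals per group, and each library is 1 animal. SwissOF1 (OF1) is an outbred stock and C57Bl/6j (C57) an inbred strain. In each strain wild type animals (OF1-WT, C57-WT) were set beside animals hemizygous for Engrailed-1 (OF1-En1+/-, C57-En1+/-), in which a lacZ insertion inactivates 1 allele of this homeobox gene of midbrain dopaminergic neurons. Every cell carries the null allele, since no Cre or cell-type promoter was used, and losing a copy can act directly only where En1 is expressed. The allele was moved into C57 by backcrossing from OF1, so that DNA linked to En1 may still be of OF1 origin in C57-En1+/- animals. The C57 strain is also the source of the reference genome.

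MHC class II molecules are heterodimers of an alpha and a beta chain that present peptides from endosomes to CD4+ T cells. H2-Aa and H2-Ab1 encode the chains of I-A, and H2-Eb1 the beta chain of I-E. The invariant chain, Cd74, occupies the binding groove during assembly, H2-DM (H2-DMa with H2-DMb1 or H2-DMb2) exchanges its remnant for peptide, H2-O (H2-Oa with H2-Ob) restrains H2-DM, and Ciita switches the set on. In the healthy brain these genes are known mainly from macrophages at the borders, from dendritic cells and, at a low level, from microglia.

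The members share a location: 6 of the 8 lie within 224 kb of chromosome 17, in the MHC, on GRCm39. H2-Oa (chr17:34311314-34314328), H2-DMa (chr17:34338515-34358958), H2-DMb1 (chr17:34372046-34379204), H2-Ab1 (chr17:34476663-34488393) and H2-Eb1 (chr17:34504236-34535648) are on the plus strand, and H2-Aa (chr17:34493404-34506798) is on the minus strand. Cd74 and Ciita lie on other chromosomes. Some members also share promoter letters. RefSeq promoter windows were held for 5 of the 8 genes, and H2-Ab1, Cd74 and Ciita had none. The 150 bases before the start of 4 of them are shown because class II promoters are known for an X box, which the RFX complex and CREB bind, followed by a Y box, which NF-Y binds. The windows are chr17:34287824-34287973 (minus strand), chr17:34305717-34305866, chr17:34153041-34153190 and chr17:34092229-34092378 (plus strand) of GRCm38.p6. Capitals mark the Y box core ATTGG, an X box core ACNGATG and, in H2-Aa, the CREB-type letters TGACGTCA, where they stand on the strand of the gene. The letters of the X core were settled after these windows had been read, to take in H2-Eb1, H2-DMb1 and H2-Oa.
H2-Aa: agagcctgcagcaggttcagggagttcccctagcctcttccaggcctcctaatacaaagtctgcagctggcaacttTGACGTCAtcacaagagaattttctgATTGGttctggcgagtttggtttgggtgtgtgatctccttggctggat
H2-Eb1: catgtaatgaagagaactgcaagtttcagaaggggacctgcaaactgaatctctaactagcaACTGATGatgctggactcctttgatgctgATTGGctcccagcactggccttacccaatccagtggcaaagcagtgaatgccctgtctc
H2-DMb1: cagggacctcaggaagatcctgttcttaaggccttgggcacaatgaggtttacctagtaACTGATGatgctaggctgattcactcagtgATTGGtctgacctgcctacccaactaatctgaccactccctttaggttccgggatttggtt
H2-Oa: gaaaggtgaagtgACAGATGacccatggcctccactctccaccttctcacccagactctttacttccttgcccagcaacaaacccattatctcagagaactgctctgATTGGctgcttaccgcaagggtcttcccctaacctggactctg

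In these windows ATTGG began 48 bases before the start of H2-Aa, 59 before that of H2-Eb1, 61 before that of H2-DMb1 and 43 before that of H2-Oa. The X core began 88 bases before the start of H2-Eb1 and 91 before that of H2-DMb1. In H2-Oa it lay 137 bases out, away from the Y box, and in H2-Aa TGACGTCA began 74 bases before the start. Searched on both strands over the 250 bases before the start, ATTGG was found in 33.8% of all 32851 windows, ACNGATG in 8.31% and TGACGTCA in 1.55%. TGACGTCA reads the same on both strands, and none of the motifs overlapped another in these 4 windows. An X core that began 20 to 40 bases ahead of ATTGG on the strand of the gene was rarer, in 27 windows or 0.0822%, among them H2-Eb1, H2-DMb1 and the related H2-DMb2 and H2-Eb2. The letters were settled to take in H2-Eb1 and H2-DMb1, and the range holds their spacing. Their place among these windows is therefore a description only. For H2-DMa the table held 2 windows, 1 with ATTGG 198 bases before its start and 1 with none of the letters.

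Depth and composition differed between the libraries. Estimated reads ranged from 13538864 to 168741283 per library. The C57-WT libraries held 66354437, 61433970 and 168741283, and every other library at most 37754338. Each comparison with C57-WT is thus also one of depth, and the part of depth in it was not tested. All values below called normalized counts are reads scaled to a common library of 32163858 reads after TMM correction, and the 18017 genes whose normalized counts averaged 10 or more were tested. En1 was listed at 0 in 4 of 6 En1+/- libraries and in 0 of 6 WT libraries, and ranged from 0.871 to 1071 in WT and from 0 to 691 in En1+/- libraries. Its level, like that of tyrosine hydroxylase (Th), was far above the others in 2 libraries, C57-WT replicate 2 and OF1-En1+/- replicate 2, with 121821 and 85968 normalized counts of Th against 8.80 to 1447 elsewhere. En1 was at 1071 and 691 in these 2 libraries and at 0 to 15.2 elsewhere, WT included. Most libraries thus held few transcripts of the dopaminergic neurons, in which loss of En1 can act directly. C57-En1+/- replicate 2 went against its label: Xist was at 1330 normalized counts, against at most 34.9 in the others, and the Y-linked Ddx3y at 0, against at least 749. No member passed the test in either hemizygosity effect or in the interaction without this library, or without the 2 libraries rich in Th. The latter fit kept only libraries low in Th and En1.

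Compared per length, as TPM (abundance corrected for transcript length and depth), H2-DMa had the highest level of the 8 genes in all 12 libraries, from 19.2 to 71.1 TPM. Below it the order of the means differed between strains. In OF1 the means were 9.17 ± 7.81 TPM for H2-Aa, 8.33 ± 4.28 for Cd74, 5.78 ± 1.34 for H2-Eb1, 1.29 ± 2.21 for H2-Ab1 and 1.05 ± 0.703 for H2-DMb1 (SD, n = 6). In C57 Cd74 came second (6.62 ± 4.34 TPM), followed by H2-Eb1 (3.72 ± 1.49), H2-Ab1 (2.08 ± 1.19), H2-DMb1 (1.12 ± 0.718) and then H2-Aa (0.731 ± 0.400). H2-Oa and Ciita were last in both strains, with means from 0.0747 to 0.193 TPM. Several neighbours in these orders did not separate: H2-Aa was above Cd74 in 3 of 6 OF1 libraries, Cd74 above H2-Eb1 in 3 of 6 C57 libraries, and H2-DMb1 above H2-Aa in 3 of 6 C57 libraries. H2-Eb1 was above H2-Ab1 in 11 of 12 libraries.

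H2-Aa, the alpha chain of I-A, was the member with the clearest strain pattern, for which the list was selected. Its normalized counts were 378, 79.5 and 476 in OF1-WT, 98.6, 74.4 and 97.9 in OF1-En1+/-, 13.9, 0 and 25.7 in C57-WT and 24.0, 16.7 and 18.0 in C57-En1+/-. Every OF1 library lay above every C57 library, a pattern shared by 1.4% of all tested genes. Within OF1-WT replicate 2 stood well below the other 2 and inside the range of the OF1-En1+/- libraries, so the order of these groups (311 ± 207 and 90.3 ± 13.8, SD, n = 3) was within the spread, as was that of C57-En1+/- (19.6 ± 3.86) and C57-WT (13.2 ± 12.9). The zero in C57-WT replicate 2 allows a level of up to 1.66 normalized counts at its depth, counting 3 reads as the limit. The estimated reads behind these values ran from 32 to 429 in OF1 and from 0 to 125 in C57, and 96.8% of them were assigned to the full-length coding transcript H2-Aa-201. The fitted log2 difference of OF1 over C57 was 4.52 (SE 1.13) in WT and 2.21 (SE 1.05) in En1+/-. Without C57-WT replicate 3, the deepest library, the WT value was 5.41.

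**Figure D1:**
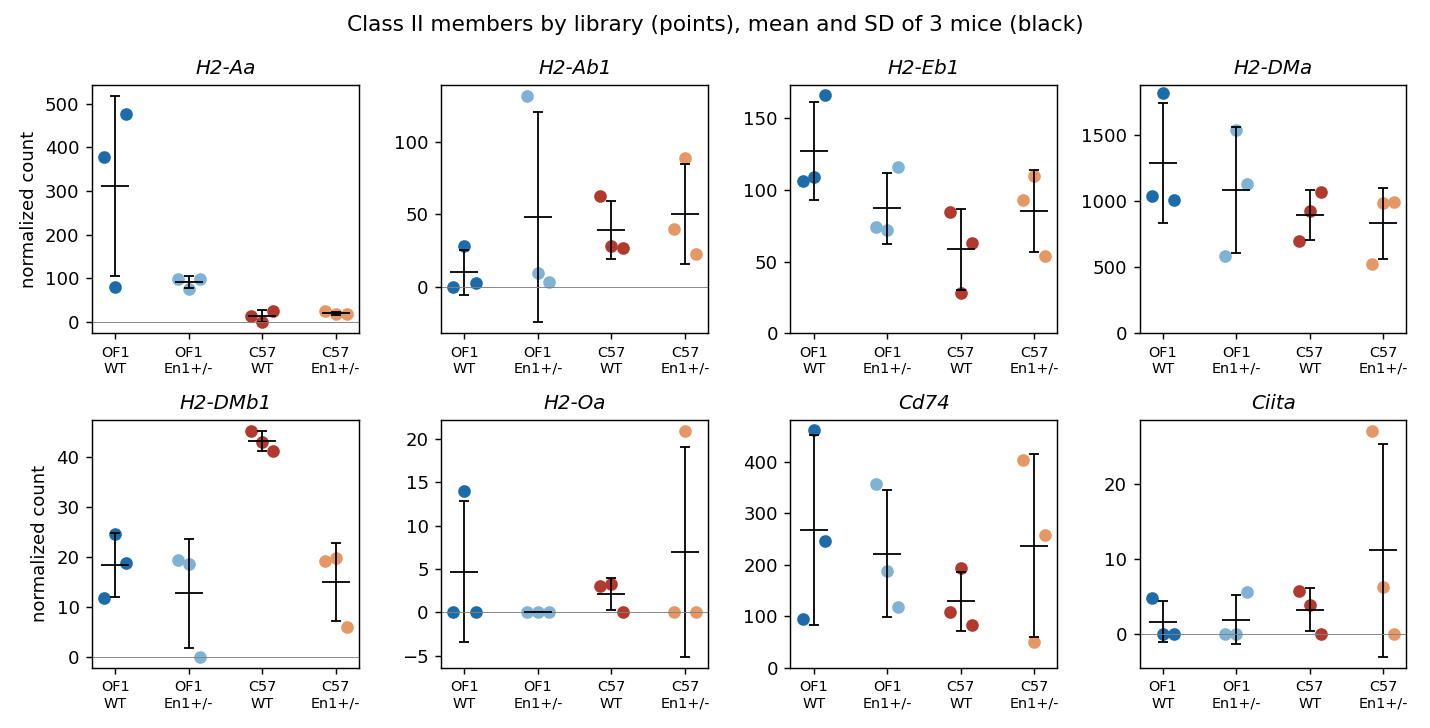
Normalized counts of the 8 members (1 panel each, own linear scale) by group, with each library as a point and the mean and SD of 3 animals in black. For H2-Aa the 6 OF1 libraries sit between 74.4 and 476, above the 6 C57 libraries at 0 to 25.7, whereas the groups overlap for H2-DMa and Cd74.

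H2-Ab1, whose product pairs with that of H2-Aa, did not follow it. Normalized counts of H2-Ab1 were 0, 28.1 and 2.22 in OF1-WT, 132, 9.30 and 3.38 in OF1-En1+/-, 62.7, 28.2 and 26.9 in C57-WT and 39.9, 88.8 and 22.3 in C57-En1+/-. OF1-En1+/- replicate 1 held more than all the other libraries, while 4 of the other 5 OF1 libraries lay below all C57 libraries. The zero in OF1-WT replicate 1, a shallow library, allows up to 7.08 normalized counts. In TPM H2-Aa exceeded H2-Ab1 in 5 of 6 OF1 libraries, and H2-Ab1 exceeded H2-Aa in 5 of 6 C57 libraries. H2-Aa made up a median of 91.4% of the pair in OF1 (46.5% to 100%) and of 24.0% in C57 (0% to 51.3%). The list was chosen for H2-Aa, so this reversal is part of the same description. Shared sequence between these genes was rare in the reference transcripts. Of the 3843 stretches of 31 bases in H2-Aa transcripts, the length Salmon uses by default, none occurred in another class II gene, and 0.267% of those of H2-Ab1 did. The reference is of C57, so these shares do not show how reads from OF1 alleles were assigned. The authors caution that strong polymorphism of MHC genes could have affected read mapping and so the strain comparisons.

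**Figure D2:**
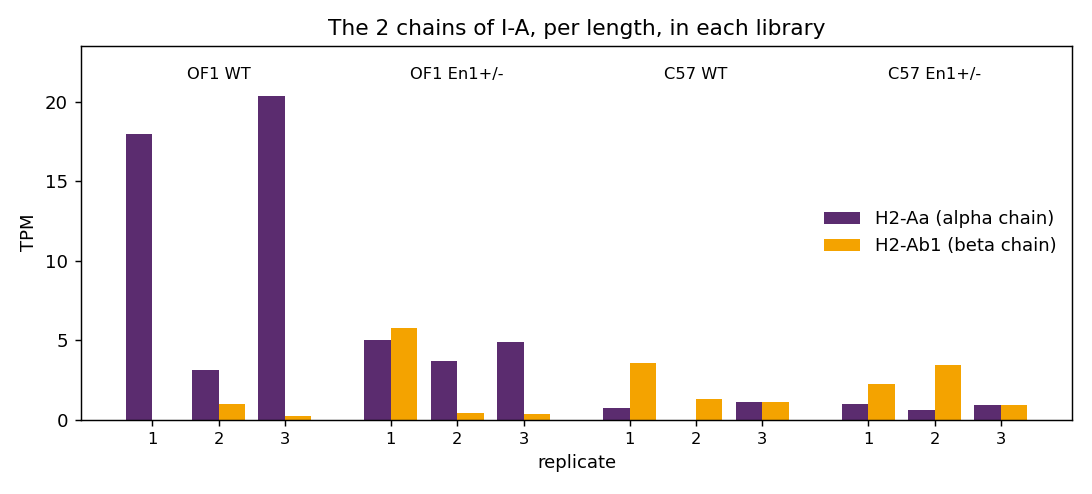
TPM of H2-Aa (purple) and H2-Ab1 (orange) in each library, by replicate within the 4 groups, on a linear axis from 0. The purple bar is the taller in 5 of 6 OF1 libraries and the orange bar in 5 of 6 C57 libraries.

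H2-Eb1, the beta chain of I-E, was present in every library. Its normalized counts were 106, 109 and 167 in OF1-WT, 73.9, 72.1 and 116 in OF1-En1+/-, 84.5, 28.2 and 62.9 in C57-WT and 92.7, 110 and 54.0 in C57-En1+/-. The OF1-WT libraries all lay above the C57-WT libraries, as 6.21% of tested genes did, while the En1+/- groups of the strains overlapped. H2-Ea, the alpha chain partner, was listed at 0 in all 12 libraries. C57BL/6 mice are known to carry an inactive allele of it. Few H2-Eb1 reads were assigned to coding transcripts: a mean of 8.29% ± 10.9 (SD, n = 12) went to H2-Eb1-201 and H2-Eb1-203, and 66.3% ± 15.4 to H2-Eb1-205, annotated as a target of nonsense-mediated decay. The total for the gene is thus mostly of transcripts not annotated to give the full chain.

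The H2-DM genes, the peptide editor, were unlike each other in level. H2-DMa held 1041, 1817 and 1012 normalized counts in OF1-WT, 584, 1537 and 1131 in OF1-En1+/-, 695, 926 and 1066 in C57-WT and 521, 983 and 991 in C57-En1+/-. All 4 groups overlapped. H2-DMb1 held 11.8, 24.6 and 18.9 in OF1-WT, 19.4, 18.6 and 0 in OF1-En1+/-, 45.3, 43.1 and 41.3 in C57-WT and 19.2, 19.9 and 6.00 in C57-En1+/-. The C57-WT libraries, which were also the deepest, lay close together and above every other library. OF1-WT lay below C57-WT without overlap, as 8.57% of tested genes did, and C57-En1+/- below C57-WT, as 8.08% did. H2-DMb1 and H2-DMb2 are near-identical copies, and 31.4% of the 31-base stretches of H2-DMb1 also occurred in H2-DMb2, so Salmon divided the reads between them and either value is uncertain. Adjusting for transcript length moved the WT strain difference of H2-DMb1 from -1.22 (SE 1.09) to -0.33. H2-DMb2 itself held 68.4, 129 and 92.1 normalized counts in OF1-WT, 5.28, 46.5 and 0 in OF1-En1+/-, 34.8, 91.1 and 85.3 in C57-WT and 0, 25.1 and 2.57 in C57-En1+/-. In both strains the En1+/- libraries lay below the WT libraries without overlap, as 8.04% of tested genes did in OF1 and 8.08% in C57. The fitted log2 difference of En1+/- minus WT in H2-DMb2 was -2.53 (SE 1.45, edgeR adjusted p = 0.621) in OF1 and -2.90 (SE 1.46, edgeR adjusted p = 0.604) in C57, and neither passed the test.

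H2-Oa, the alpha chain of the H2-DM modulator, and Ciita, the master regulator (chr16:10297923-10347694, plus strand), were at the edge of detection. H2-Oa had reads in 4 of 12 libraries, with 14.0 normalized counts in OF1-WT replicate 2, 20.9 in C57-En1+/- replicate 2 and 3.05 and 3.31 in C57-WT replicates 1 and 2. Ciita had reads in 6 of 12 libraries, at most 27.2 normalized counts, in C57-En1+/- replicate 1. The 17 estimated reads of that library were all assigned to Ciita-204, annotated with 78 coding residues. Over all libraries 8.98% of Ciita reads went to Ciita-206, with 1054 residues, and none to Ciita-201, Ciita-203 or Ciita-205. The means of H2-Oa and Ciita, 3.44 and 4.44, were under the minimum of 10, so they were not among the 6 tested members. Ciita also lies over Dexi and H2-Oa over BC051537, each on the other strand. The library kit does not mark strand, so a part of these reads may belong to either gene of a pair. The same limit holds for H2-Eb1, which overlaps Gm20513, and for H2-DMa, which overlaps Brd2, Gm20493 and Gm50335. Low counts here show that a difference was not detectable at this depth. A library at 0 still allows from 0.617 to 7.08 normalized counts of H2-Oa and from 0.617 to 6.98 of Ciita.

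Cd74, the invariant chain (chr18:60936899-60945731, plus strand), varied about as much within groups as between them. Its normalized counts were 94.4, 461 and 246 in OF1-WT, 357, 188 and 118 in OF1-En1+/-, 109, 194 and 83.7 in C57-WT and 403, 50.2 and 257 in C57-En1+/-. The highest library was OF1-WT replicate 2 and the lowest C57-En1+/- replicate 2, the one against its sex label. Cd74 thus did not share the strain pattern of H2-Aa, with a Pearson r of 0.10 between their log2 CPM (counts relative to library size) over 12 libraries.

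Transcripts within a gene gave a readout that the choice of members had not used. H2-DMa reads divided between transcripts that start at chr17:34354560 and transcripts that start at least 10 kb upstream. Most of the upstream reads were assigned to H2-DMa-201, which starts at chr17:34341806, 12754 bases away. H2-DMa-205 and H2-DMa-201, the main transcripts of these starts, both encode 261 residues. The upstream share was 62.1%, 41.6% and 42.8% in OF1-WT, 65.6%, 47.0% and 80.6% in OF1-En1+/-, 39.1%, 38.0% and 29.5% in C57-WT and 56.4%, 63.3% and 38.2% in C57-En1+/-. It averaged 58.5% ± 14.9 in En1+/- and 42.2% ± 10.8 in WT (SD, n = 6), which did not pass an exact two-sided permutation test (p = 0.0563, 0.169 after Benjamini-Hochberg adjustment over 6 such tests). Cd74 reads divided between Cd74-202, the long form of 279 residues, and Cd74-201 of 215 residues. The long form, known for an added thyroglobulin-type domain, took 71.6%, 79.9% and 71.7% of reads in OF1-WT, 84.9%, 80.2% and 51.5% in OF1-En1+/-, 49.9%, 58.3% and 63.0% in C57-WT and 65.6%, 19.4% and 68.5% in C57-En1+/-. Its mean was 73.3% ± 11.9 in OF1 and 54.1% ± 18.2 in C57 (n = 6), with an exact permutation p of 0.0411 that became 0.169 after adjustment over the 6 tests. Without C57-En1+/- replicate 2, at 19.4%, the C57 mean was 61.1% ± 7.28 (n = 5) and the exact permutation p 0.0823. For the decay transcript of H2-Eb1 neither comparison reached an adjusted p below 0.781 by the exact permutation test. The permutations pooled the libraries compared, and held neither strain fixed when genotype was tested nor genotype when strain was tested. These 3 shares were picked after the reads per transcript had been seen.

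**Figure D3:**
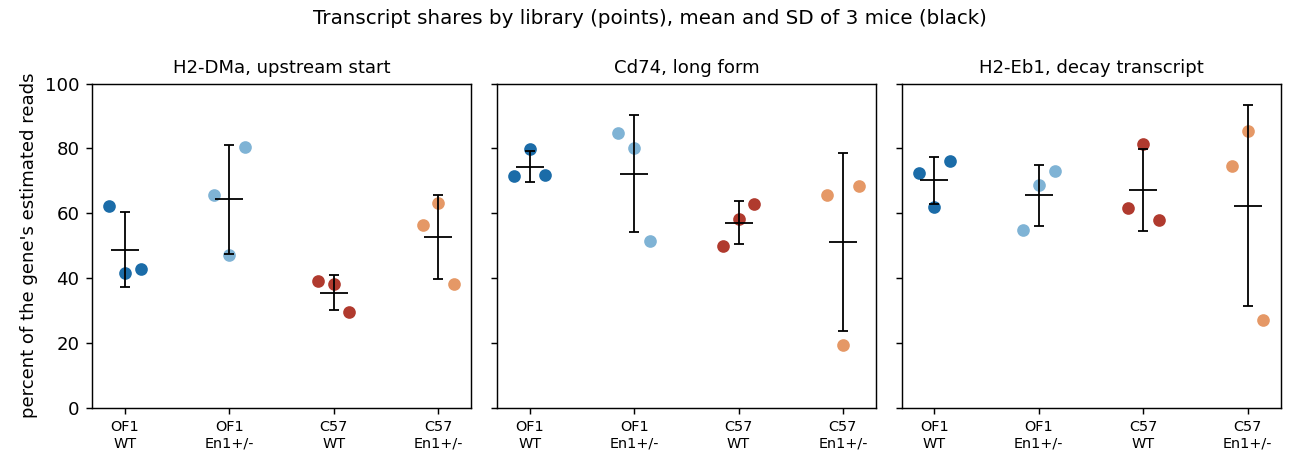
Share of a gene's estimated reads, in percent, on H2-DMa transcripts of the upstream start, on the long Cd74 transcript and on H2-Eb1-205, by group, with each library as a point and the mean and SD of 3 animals in black. The Cd74 share of C57-En1+/- replicate 2 sits at 19.4%, under all the others.

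The effect of En1 hemizygosity in each strain and its difference between strains were not the comparison for which the list was chosen. They use the same libraries, however, and the interaction equals the WT strain difference minus that of En1+/-. For H2-Aa these values are therefore not independent of the choice. None of the 6 tested members passed an adjusted p of 0.05 by edgeR's quasi-likelihood test in OF1, in C57 or in the interaction, where 0% of all tested genes passed. None had an unadjusted p under 0.05, and DESeq2 called none of the 6 either. In OF1 the En1+/- minus WT log2 difference was -1.78 (SE 1.01, edgeR adjusted p = 0.618) for H2-Aa and 2.20 (SE 1.45, edgeR adjusted p = 0.674) for H2-Ab1. The latter rested on OF1-En1+/- replicate 1, without which it was -0.76. H2-Eb1 was at -0.54 (SE 0.53), H2-DMa at -0.25 (SE 0.38), H2-DMb1 at -0.58 (SE 1.11) and Cd74 at -0.28 (SE 0.73). The median over the 6 was -0.41, beside -0.017 over all tested genes.

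In C57 the log2 differences of En1+/- minus WT were 0.53 (SE 1.01) for H2-Aa, 0.36 (SE 1.36) for H2-Ab1, 0.54 (SE 0.53) for H2-Eb1, -0.11 (SE 0.38) for H2-DMa and 0.88 (SE 0.73) for Cd74. H2-DMb1, whose groups did not overlap, was at -1.53 (SE 1.10, edgeR adjusted p = 0.707). Without C57-En1+/- replicate 2 the value of H2-Ab1 was -0.32, and without the 2 libraries rich in Th that of H2-Aa was -0.031. The median was 0.45 over the 6 members and -0.049 over all tested genes. The interaction, taken as the effect in C57 minus that in OF1, was 2.31 (SE 1.43, edgeR adjusted p = 0.766) for H2-Aa, -1.84 (SE 1.96) for H2-Ab1, 1.08 (SE 0.75) for H2-Eb1 and 1.15 (SE 1.04) for Cd74. With standard errors of this size, changes of the size of the fitted values could not be told from the spread between 3 animals.

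Set side by side as a description, the strain differences of the other members were smaller than that of H2-Aa. In WT the fitted log2 difference of OF1 over C57 was -1.90 (SE 1.43) for H2-Ab1, 1.12 (SE 0.53) for H2-Eb1, 0.53 (SE 0.38) for H2-DMa and 1.06 (SE 0.74) for Cd74. In En1+/- it was -0.064 (SE 1.37) for H2-Ab1, 0.035 (SE 0.53) for H2-Eb1, 0.38 (SE 0.38) for H2-DMa, -0.27 (SE 1.11) for H2-DMb1 and -0.096 (SE 0.73) for Cd74. The WT value of H2-Ab1 was -4.78 without OF1-WT replicate 2, and that of Cd74 0.41 without the same library. In En1+/- the OF1 libraries lay above the C57 libraries without overlap for H2-Aa alone, as for 6.49% of tested genes.

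**Figure D4:**
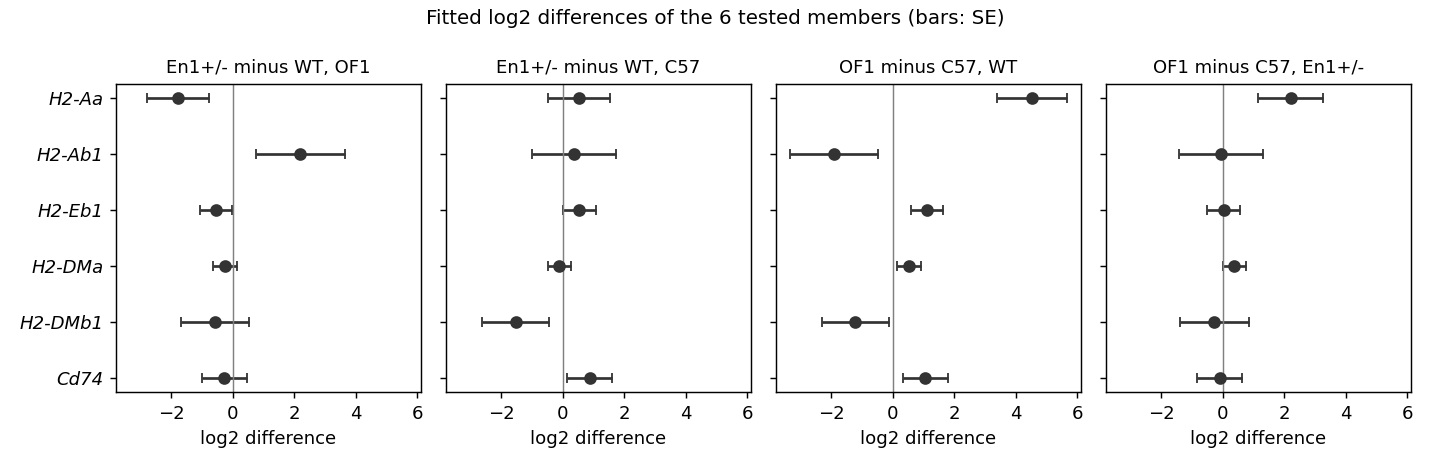
Fitted log2 differences (points) with standard errors (bars) of the 6 tested members, for the effect of En1 hemizygosity in each strain and for OF1 minus C57 in each genotype. H2-Aa stands at 4.52 and 2.21 in the strain panels, and in the hemizygosity panels the members lie between -1.78 and 2.20.

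Other genes of class II presentation, 40 listed by name, gave 34 tested genes. None passed in any of the 5 comparisons by edgeR, and DESeq2 called 0 of the 34 in each. Over all tested genes edgeR called 1.03% in the WT strain difference and 0.927% in that of En1+/-. An unadjusted p under 0.05 was reached by 2, 5 and 2 of the 34 in OF1 hemizygosity, C57 hemizygosity and the interaction (5.88%, 14.7% and 5.88%), beside 9.18%, 8.57% and 7.07% of all tested genes. In the WT and En1+/- strain differences it was reached by 6 and 0 of the 34 (17.6% and 0%), beside 8.63% and 8.00% of all tested genes. The subunits of the RFX complex, which binds the X box, were well expressed: Rfx5 at a mean of 303 normalized counts, Rfxap at 739 and Rfxank at 427. In the WT strain difference they were at -0.28 (SE 0.39), -0.41 (SE 0.29) and 0.34 (SE 0.25) on the log2 scale. Their En1+/- minus WT log2 differences were -0.25 (SE 0.39), -0.15 (SE 0.29) and -0.023 (SE 0.25) in OF1, and -0.67 (SE 0.39), -0.82 (SE 0.29) and 0.079 (SE 0.25) in C57, with edgeR adjusted p of 0.65, 0.55 and 0.95 in the latter. Ctss, the protease that trims the invariant chain, was at a mean of 604 normalized counts, the endosomal reductase gene Ifi30 at 238 and Lgmn, an endosomal protease gene, at 2783. In C57 the En1+/- minus WT log2 differences were 0.80 (SE 0.40) for Ctss, 0.95 (SE 0.44) for Ifi30 and 0.48 (SE 0.24) for Lgmn, with edgeR adjusted p of 0.60, 0.59 and 0.60. In OF1 they were 0.56 (SE 0.40), -0.38 (SE 0.44) and 0.37 (SE 0.24). H2-Ob averaged 12.5 normalized counts and H2-Eb2 5.19.

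Genes next to H2-Aa were examined because a strain difference can extend over a stretch of chromosome. Of 47 tested genes that are no members and have their 5' end within 500 kb of that of H2-Aa, edgeR called 1 in WT, the long noncoding RNA gene Gm20463, and 1 in En1+/-, Rps18, a ribosomal protein gene. Gm20463, 313 kb away, was at 365 ± 51.2 normalized counts in OF1-WT and 108 ± 16.2 in C57-WT (log2 difference 1.75, SE 0.30, edgeR adjusted p = 0.0128). In En1+/- its direction was the other, at 193 ± 28.02 in OF1 and 327 ± 57.4 in C57 (log2 difference -0.76, SE 0.30, edgeR adjusted p = 0.516), which did not pass. Rps18, 332 kb away on the other side, was at 2751 ± 483 in OF1-En1+/- and 6731 ± 1469 in C57-En1+/- (log2 difference -1.29, SE 0.24, edgeR adjusted p = 0.0248). Both calls were lost when only the 6 libraries compared were fitted and when the 2 libraries rich in Th were left out. The WT count of neighbours also fell to 0 without C57-WT replicate 2 or 3, and the En1+/- count without C57-En1+/- replicate 1 or without any of the 3 OF1-En1+/- libraries. The median log2 difference of the 47 was 0.11 in WT and 0.073 in En1+/-, beside -0.055 and -0.018 over all tested genes. A long noncoding RNA gene 309 kb away, AA388235, named here after its values had been seen, had reads in 1 of 6 OF1 and in 6 of 6 C57 libraries. It averaged 1.11 ± 1.92 normalized counts in OF1-WT and 34.7 ± 16.9 in C57-WT, a fitted log2 difference of -4.68 (SE 1.38, edgeR adjusted p = 0.274) that was larger in size than that of H2-Aa and did not pass. In En1+/- it was at 0 in all 3 OF1 libraries and at 34.0 ± 26.0 in C57 (edgeR adjusted p = 0.109).

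**Figure D5:**
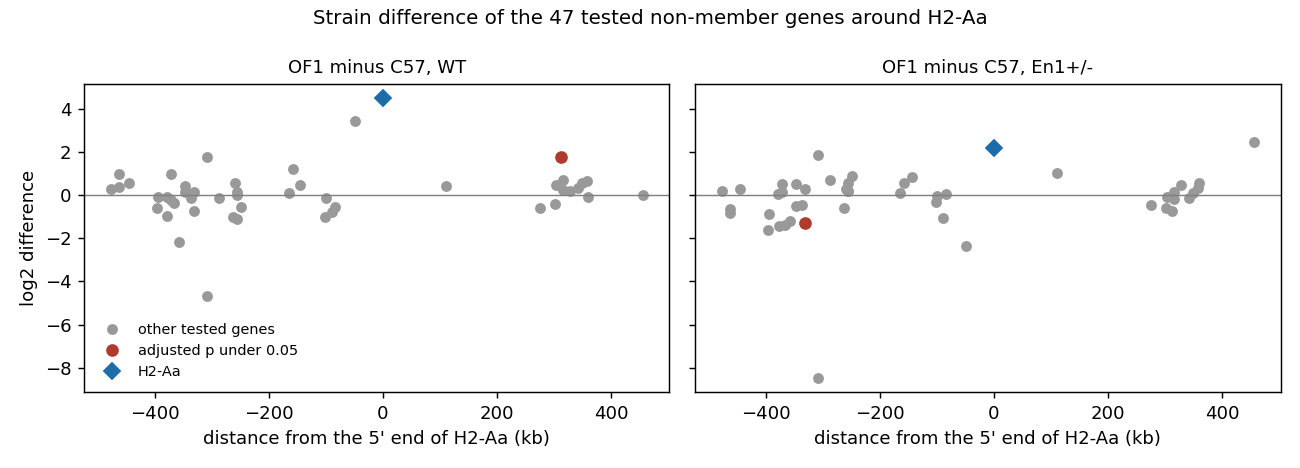
Fitted log2 difference of OF1 minus C57 for the 47 tested non-member genes by distance in kb from the 5' end of H2-Aa, in WT and in En1+/-, with genes at an edgeR adjusted p under 0.05 in red and H2-Aa as a blue diamond, for description. H2-Aa, at 4.52 and 2.21, is above all but 1 of the neighbours in En1+/- and above all of them in WT, while AA388235, at -4.68 in WT, lies farther from 0 on the other side.

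By Pearson r of log2 CPM over the 12 libraries, the genes most like H2-Aa were Gm20707 (r = 0.98), Ccl27al (0.93), Gm26793 (0.92), Gm3892 (0.90) and Cenps (0.90). H2-Eb1 reached r = 0.80 with H2-Aa, and H2-Ab1 r = -0.60. Those most like Cd74 were Gm53015 (0.85), Gtf2i (0.83), Endov (0.83), Gm33933 (0.82) and Phyhip (0.81). All of these points share the split into 2 strains and the unequal depth, and the values are descriptions over 12 libraries.

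Markers of several cell types that can carry class II, and of other cells of the tissue, were set beside the members. Microglial markers (11 of 12 listed genes found, all 11 with reads in all libraries) summed to 6633 to 11880 normalized counts in OF1 and 6458 to 11648 in C57. The 10 markers of border-associated macrophages summed to 128 to 2103 in OF1 and 125 to 542 in C57, with 1 of the 10 detected in all libraries. The value of 2103 was that of OF1-En1+/- replicate 3, and the next highest in OF1 was 706. F13a1 alone reached 1684, and no other marker of this list was above 302 in any library. Dendritic cell markers summed to 439 to 581 in OF1-WT, 388 to 689 in OF1-En1+/-, 627 to 874 in C57-WT and 614 to 868 in C57-En1+/-. In WT the OF1 sums lay below the C57 sums without overlap, as 8.57% of single tested genes did, while the En1+/- groups overlapped. Of these 8 genes Flt3 and Zbtb46 had medians of 263 and 336 over all libraries, and no other had a median above 14.2. Cd209a was listed at 0 in all libraries and Itgax had reads in 3. T cell markers (6 genes) summed to 428 to 1218 in OF1-WT, 33.4 to 160 in OF1-En1+/-, 82.8 to 655 in C57-WT and 37.6 to 562 in C57-En1+/-. The OF1-En1+/- sums lay below the OF1-WT sums without overlap, as 8.04% of single tested genes did. Most of the sum was Trbc2, a T cell receptor constant gene, at 14.9 to 1135, whereas Cd3e had reads in 4 libraries, Cd3d in 10 and Cd3g in 3. Monocyte markers (3 genes) summed to 4.72 to 78.3 in OF1 and 17.9 to 42.0 in C57. Blood markers (5) summed to 6536 to 57522 in OF1, 12113 to 14885 in C57-WT and 22346 to 46055 in C57-En1+/-. Markers of meninges and mural cells (7) summed to 2879 to 7591 in OF1 and 2111 to 7402 in C57. Dopaminergic neuron markers (8), of the neurons that define the SNpc, summed to 628 to 380008 in OF1 and 460 to 581775 in C57, the highest value of each strain being a library rich in Th. In WT they summed to 628 to 2469 in OF1 and 2837 to 581775 in C57, again without overlap, as for 8.57% of single tested genes. With both genotypes pooled, the ranges of the strains overlapped for each of these lists. The part of any cell type in the strain or genotype values of the members was not tested. In such tissue fewer cells of a type and less RNA per cell cannot be told apart.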

How the data were processed

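RNA was laser-microdissected from SNpc sections of 12 mice, amplified with SMART-Seq v4 and sequenced as 75-base pairs. The authors quantified the reads with Salmon against GENCODE transcripts (GRCm39) and deposited estimated counts, TPM and transcript lengths (length and effective length, no unit tested) for each of 140790 transcripts in 1 file per library. Here the estimated counts were rounded to whole numbers after summing them per gene, with 99.12% of the transcripts matched to a GENCODE gene. Genes whose normalized counts averaged 10 or more were tested with edgeR 4.0.16 (TMM, robust quasi-likelihood test, 1 mean per group over 12 libraries, Benjamini-Hochberg over all tested genes, threshold 0.05). DESeq2 1.42.0, relative log expression factors, no filter, length offsets, only the 6 libraries compared and leaving out libraries were alternatives, and omission of the 2 libraries rich in Th was chosen after seeing the data. The members and the gene lists were chosen with earlier results of these data known. Named genes were all members, listed pathway genes past the threshold or else Rfx5, Rfxap, Rfxank, Ctss, Ifi30, Lgmn and other class II genes, neighbours past the threshold, and the 5 of most similar pattern. Nothing states whether animals came from separate litters, so p-values measure the spread between these animals. Intervals from 3 reads cover counting error only. The standard errors of edgeR log2 differences are the size of the difference divided by the square root of its F statistic. The edgeR step was tested on simulated data. Libraries within a group differed far beyond counting noise. Transcripts came from the C57BL/6J reference, and its effect on OF1 reads was not tested. One list of marker genes is not reported here.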

Additional observations from a re-analysis of the deposited data

How the results depend on the processing

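For both hemizygosity effects and the interaction, each of 53 counts of called class II members under alternatives was 0, as first obtained. Nothing is read from the members' count in the WT strain difference, for which the list was chosen: it was 0 by edgeR, 1 by DESeq2 and from 0 to 1 when 1 library was left out (1 without C57-WT replicate 2). Counts over all genes moved more. DESeq2 called 208, 74 and 42 genes for OF1 hemizygosity, C57 hemizygosity and the interaction, where edgeR called 0, and 456 and 444 for the WT and En1+/- strain differences, where edgeR called 185 and 167. Fitting only the 6 libraries compared gave 123 (WT) and 108 (En1+/-), and omitting the 2 libraries rich in Th gave 107 and 108, with 1 gene for OF1 hemizygosity. Neighbours of H2-Aa called fell from 1 to 0 in WT and in En1+/- under both of these settings, and DESeq2 called 2 in En1+/-.

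Leaving out 1 library at a time, the counts ran from 0 to 3 (OF1 hemizygosity), 0 to 1 (C57 hemizygosity) and 0 to 1 (interaction) over all genes, from 111 to 175 for the En1+/- strain difference, and from 0 to 1 neighbours in each strain difference.

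Of 318 log2 differences of members under alternatives for the hemizygosity effects and the interaction, 14 reversed, none of them past the threshold. Of these, 13 came from leaving out 1 library. The ranges over such omissions were, for the OF1 effect, -0.76 to 5.07 (H2-Ab1), -0.59 to 0.090 (H2-DMa), -1.07 to 0.029 (H2-DMb1) and -0.81 to 0.38 (Cd74), for the C57 effect -0.32 to 0.89 (H2-Ab1) and -0.25 to 0.16 (H2-DMa), and for the interaction -4.69 to 1.12 (H2-Ab1) and -0.17 to 0.49 (H2-DMa). The other was the C57 effect of H2-Aa, -0.031 without the 2 libraries rich in Th. The causes were not tested. Of the strain differences, given as description, 12 of 108 in En1+/- changed sign, all of H2-Ab1, H2-Eb1, H2-DMb1 or Cd74 and from values near 0 beside their standard errors, and 0 of 108 in WT did. No paired analysis was possible because the animals carry no shared numbers.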
